A study of Homo sapiens with 10 samples.

Results

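Matrix metalloproteinases (MMPs) are zinc-dependent endopeptidases that cut collagens, gelatins and other proteins of the extracellular matrix, and tissue inhibitors of metalloproteinases (TIMPs) bind and block them. Here, 10 of these genes were followed in irradiated human proximal tubular cells: the interstitial collagenase MMP1, the gelatinases MMP2 and MMP9, matrilysin MMP7, stromelysin MMP10, the membrane-anchored MMP14 and MMP24, and the inhibitors TIMP1, TIMP2 and TIMP3. They were chosen by name, with earlier results of these data known, and make up 10 of the 61587 genes of the deposited count table. Each is the row whose Ensembl identifier maps to the symbol. MMPs are made as inactive pro-forms. Most secreted ones, though not all, are activated outside the cell by plasmin or by other MMPs. Membrane-type ones are cut by furin-like convertases on their way to the cell surface. The network has a well-known crossing point, where MMP14 on the cell surface holds pro-MMP2 through a bridge of TIMP2 and a second MMP14 molecule cuts it. In the kidney, MMP7 is known as a product of injured tubular epithelium and MMP2 and MMP9 as the enzymes that degrade the type IV collagen of tubular basement membrane.

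RNA-seq of polyA RNA was performed on RPTEC/TERT1 cells, a line of human renal proximal tubular epithelial cells immortalised by telomerase, which every sample therefore shares. There were 5 samples of cells given 10 Gy of gamma irradiation and 5 controls, which were mock-irradiated (0 Gy), and RNA was extracted 7 days later. Samples carry replicate numbers 1 to 5 in both groups, and irradiated and control samples with the same number were treated as a pair. The sources used here do not say whether the replicates were separate cultures, and if they were not, p-values measure technical spread. As a model, the cells are 1 immortalised line in monoculture, without the matrix or the other cell types of a kidney.

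Depth ranged from 66269311 to 131555873 counts on genes per sample. Of 14 proximal tubule and renal epithelial markers, 11 had at least 200 counts over the 10 samples, while LRP2 (17 counts), HNF4A (12 counts) and SLC34A1 (86 counts), which define differentiated proximal tubule, were near 0. The summed level of 10 proliferation markers was 205 to 619.5 CPM in control and 72.5 to 121 CPM in irradiated samples, where CPM is counts scaled to a common library total after TMM normalisation. Controls 1 and 3 had the lowest proliferation sums among controls, at 214 and 205 CPM, and the other 3 controls lay between 572 and 619.5 CPM. Summed levels of markers of other cell types were low but higher after irradiation: 0.571 to 0.881 CPM against 1.87 to 2.58 CPM for 6 leukocyte markers, 15.9 to 23.5 CPM against 28.6 to 40.1 CPM for 6 fibroblast markers, and 1.29 to 2.41 CPM against 4.15 to 6.07 CPM for 4 endothelial markers. Of the tested markers, 2 of 3, 2 of 2 and 2 of 3 were called higher, and none lower, beside 23.9% higher and 22.7% lower over all tested genes. The log2 fold changes of those called were 4.71 for ITGAM (25 counts in control and 552 counts in irradiated samples) and 1.09 for CD14, 0.78 for COL1A1 and 2.36 for DCN, and 2.48 for CDH5 and 0.72 for PECAM1, with edgeR adjusted p-values from 3.91e-05 to 0.00519. The markers with the fewest counts in these 3 lists were CD3E with 3 counts, LUM with 2 counts and KDR with 2 counts over all samples. The endothelial marker VWF had 402 counts over all samples and was not called. The general leukocyte marker PTPRC was 0.295 CPM in control and 0.353 CPM in irradiated samples, on average. The part of these markers in the results below was not tested. In bulk samples, fewer cells making a transcript and less of it per cell cannot be told apart.

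The promoters of the genes that the results turn on were read from RefSeq sequences of GRCh38.p14, which held 6 of the 10 genes (MMP7, MMP10, MMP14, MMP24, TIMP1 and TIMP3). Shown are MMP7, the secreted MMP with the highest mean level, MMP10, its scarce neighbour on chromosome 11, MMP14, the membrane-type activator of pro-MMP2, and TIMP3, which had the largest fold change. Each line runs 5′ to 3′ on the strand of the gene and ends just before the first annotated transcribed base. Coordinates are chr11:102530751-102530947 (minus strand) for MMP7, chr11:102780629-102780828 (minus strand) for MMP10, chr14:22836385-22836559 (plus strand) for MMP14 and chr22:32801505-32801704 (plus strand) for TIMP3. Capitals mark matches to TGAGTCA (the AP-1 element), TATAAA (the TATA box) and GGGCGG (the GC box), each searched on both strands, so that the last also appears as CCGCCC.
MMP7: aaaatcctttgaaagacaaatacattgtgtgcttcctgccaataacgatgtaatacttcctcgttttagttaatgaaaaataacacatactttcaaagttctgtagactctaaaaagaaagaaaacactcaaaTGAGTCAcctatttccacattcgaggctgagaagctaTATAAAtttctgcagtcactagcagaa
MMP10: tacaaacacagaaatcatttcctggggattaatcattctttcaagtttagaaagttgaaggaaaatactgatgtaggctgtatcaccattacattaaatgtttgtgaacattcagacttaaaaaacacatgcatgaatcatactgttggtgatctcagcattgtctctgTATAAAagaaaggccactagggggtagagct
MMP14: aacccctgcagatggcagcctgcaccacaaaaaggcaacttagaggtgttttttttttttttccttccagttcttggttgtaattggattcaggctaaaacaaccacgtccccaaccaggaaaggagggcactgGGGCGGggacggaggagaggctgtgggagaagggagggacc
TIMP3: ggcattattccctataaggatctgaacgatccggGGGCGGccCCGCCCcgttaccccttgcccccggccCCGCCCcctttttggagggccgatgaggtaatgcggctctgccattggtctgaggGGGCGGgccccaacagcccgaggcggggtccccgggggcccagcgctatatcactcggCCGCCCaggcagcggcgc
MMP7 held TGAGTCA with its first base at position -67 from the RefSeq start and TATAAA at -30. MMP10 held TATAAA at -31 and neither of the other motifs. MMP14 held a single GC box, at -66, and no TATAAA. TIMP3 held 5 GC boxes in either orientation, at -166, -158, -131, -76 and -18. MMP24 and TIMP1, not printed, held 3 and 2 GC boxes and neither other motif. The 6 genes were searched over 300 bases each, from 250 before to 50 after the RefSeq start, and all matches lay within the 200 bases before it. Of 35116 promoters of the same table, searched over the same 300 bases, 4.95% held TGAGTCA, 11.5% TATAAA and 45.0% GGGCGG. These matches are a description of the letters and say nothing of the use of the sites in these cells.

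Across the group, 8 of the 10 genes had at least 200 counts over all samples and were tested, and the median log2 fold change of these 8 was 0.58, beside -0.01 over all 19006 genes tested. In the quasi-likelihood test of edgeR, whose p-values were adjusted by Benjamini-Hochberg over all tested genes throughout, 7 of them were higher in irradiated cells and 1, MMP2, was lower, at an adjusted p-value under 0.05. Over all tested genes, 23.9% were higher and 22.7% lower at the same threshold. As the 10 genes were chosen with earlier results of these data known, this comparison is a description and not a test. When samples were scaled by library size alone, 38% of the changed genes were higher, against 51.4% here, and 6 of the 8 genes were higher, TIMP2 no longer passing. MMP1 and TIMP3 rose more than 2-fold, as did 5.26% of all tested genes. MMP1 reached the limit of 200 counts only through its irradiated samples (220 counts, against 30 counts in control). For 5 of the 8 (MMP1, MMP14, MMP24, TIMP1 and TIMP3), every irradiated sample lay above every control sample, which held for 14.6% of all tested genes, and none had all irradiated samples below all controls, which held for 12.0%. MMP9 and MMP10 had fewer than 200 counts and are given by their counts.

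**Figure D1:**
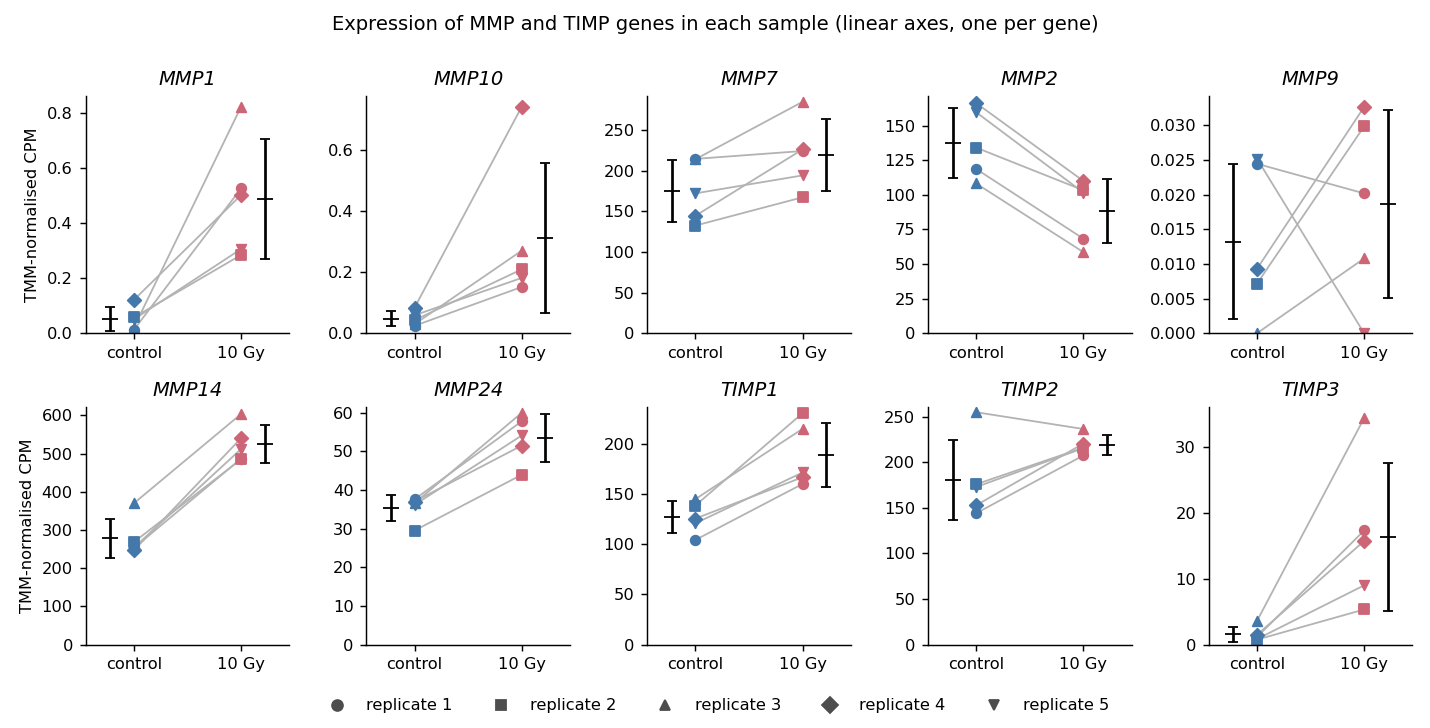
TMM-normalised CPM (vertical axis, linear and different for each gene) of 10 MMP and TIMP genes in 5 control (blue) and 5 irradiated (red) samples, with grey lines joining samples of the same replicate number and bars for the mean ± SD of each group. The lines of MMP2 all fall, those of MMP1, MMP10, MMP7, MMP14, MMP24, TIMP1 and TIMP3 all rise, the line of replicate 3 falls for TIMP2, and MMP9 rests on 15 counts in all.

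MMP1, the collagenase that cuts fibrillar collagens I and III, was scarce in both groups and rose. It lies on chromosome 11 of GRCh38 from 102789401 to 102798160 on the minus strand (ENSG00000196611.6, 10 exons). The table held 1, 8, 2, 13 and 6 counts of MMP1 in controls 1 to 5, and 52, 19, 76, 46 and 27 counts in irradiated samples 1 to 5. As levels these were 0.0122, 0.0572, 0.0199, 0.121 and 0.0504 CPM in control and 0.525, 0.284, 0.821, 0.501 and 0.305 CPM in irradiated samples. The groups did not overlap, and the lowest irradiated sample stood above the highest control. The log2 fold change was 3.08 (standard error, SE, 0.44), an 8.47-fold rise, and the edgeR adjusted p was 0.001055. The control side rests on 30 counts in total, so the size of the change is less certain than its direction. Controls 1 and 3, the samples with the low proliferation sums, had the 2 lowest MMP1 levels of the controls, at 1 and 2 counts. Irradiated samples 1 and 3 had the 2 highest of the irradiated samples. Controls 1 and 3 were also the 2 lowest controls for MMP2 and MMP10 and the 2 highest for MMP7. For TIMP1 and TIMP2, control 1 was the lowest and control 3 the highest. For MMP14, MMP24 and TIMP3 they did not rank next to each other. A link to proliferation was not tested. Of the exon length of MMP1, 8.14% lies under exons of WTAPP1 on the opposite strand, where reads are treated here as lost to both genes.

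MMP10, a stromelysin that cuts proteoglycans and activates other pro-MMPs, lies next to MMP1, from 102770502 to 102780628 on the same strand (ENSG00000166670.10). It had 165 counts in all, which is under the limit of 200 counts, with 2, 6, 3, 9 and 7 counts in controls 1 to 5 and 15, 14, 25, 68 and 16 counts in irradiated samples 1 to 5. Its levels were 0.0245 to 0.0836 CPM in control and 0.151 to 0.740 CPM in irradiated samples, again without overlap. Irradiated sample 4 was the highest, where MMP1 was highest in irradiated sample 3. In a fit that kept all 44263 genes with at least 1 count, MMP10 had a log2 fold change of 2.54 (SE 0.31; edgeR, adjusted p = 9.77e-07). In that fit 10.2% of genes were higher at the threshold. The same fit gave MMP1 an adjusted p of 2.48e-07 (edgeR), against 0.001055 in the main fit. The p-value of MMP10 is therefore not comparable with those of the main fit.

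MMP7, matrilysin, cuts fibronectin, E-cadherin and other cell surface proteins, and was among the abundant transcripts of the group. The gene lies on chromosome 11 from 102520508 to 102530750, minus strand (ENSG00000137673.9, 6 exons). Its level was 214, 132.4, 214, 144 and 172 CPM in controls 1 to 5, and 224, 167, 285, 226 and 194 CPM in irradiated samples 1 to 5. All 5 pairs were higher after irradiation, but the groups overlapped, and the change within a pair ran from 0.06 (pair 1) to 0.65 (pair 4) on the log2 scale. The fitted log2 fold change was 0.33 (SE 0.08; edgeR, adjusted p = 0.01326). Without the replicate block, which compares samples within pairs, the log2 fold change was 0.32 and the adjusted p was 0.147, so the call rests on the pairing. Controls 1 and 3, with the low proliferation sums, had the highest MMP7 levels of the controls.

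MMP7, MMP10 and MMP1 belong to a cluster of 9 MMP genes that spans 435 kb of chromosome 11. Counts within it differed by orders of magnitude. MMP7 had 191200 counts over the 10 samples, MMP1 250 counts and MMP10 165 counts, and the other 6 genes (MMP20, MMP27, MMP8, MMP3, MMP12 and MMP13) held 13 counts together, with at most 4 counts for any of them. MMP10 and MMP1, which begin 250 kb and 267 kb from the start of MMP7, were thus the only other members of the cluster with more than 4 counts in these samples.

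**Figure D2:**
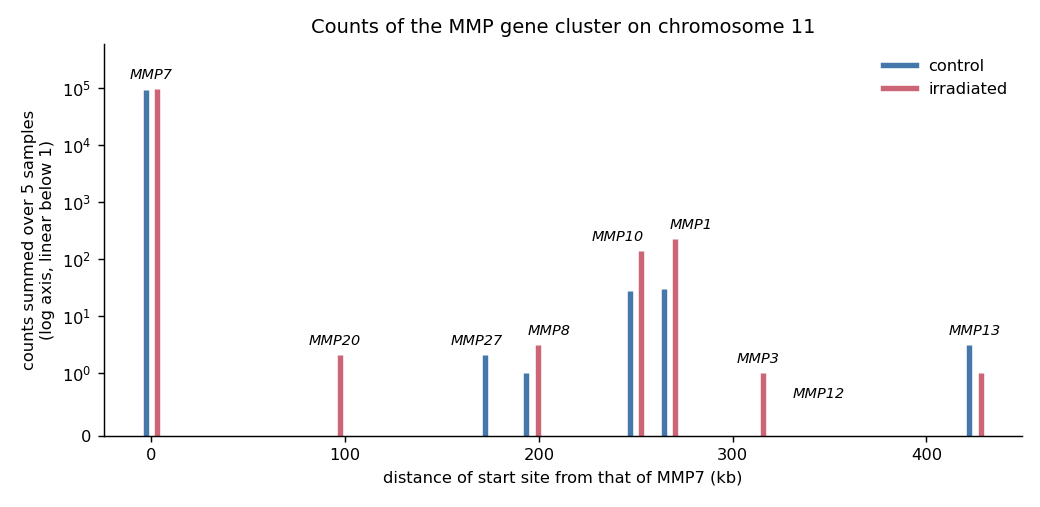
Counts summed over 5 control (blue) and 5 irradiated (red) samples (vertical axis, logarithmic above 1 and linear below) of the 9 MMP genes of the chromosome 11 cluster, by distance of their start sites from that of MMP7 in kb (bars of a gene are set slightly apart). MMP7 stands at 93515 counts in control and 97685 counts in irradiated samples, MMP10 rises from 27 to 138 counts and MMP1 from 30 to 220 counts, and MMP12 has 0 counts.

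MMP2, the gelatinase that cuts denatured collagen and type IV collagen, was the 1 gene of the group that fell. It lies on chromosome 16 from 55389700 to 55506691, plus strand (ENSG00000087245.13, 13 exons). Its level was 119, 134, 108, 166 and 160 CPM in controls 1 to 5, and 68.3, 103, 58.6, 110.0 and 102 CPM in irradiated samples 1 to 5. Each irradiated sample was below its paired control, while the groups as a whole overlapped only in that control 3 (108 CPM) lay below irradiated sample 4 (110.0 CPM). The mean went from 137 ± 25.2 to 88.4 ± 23.2 CPM (SD, n = 5 each). The log2 fold change was -0.66 (SE 0.07), a 1.58-fold fall, and the edgeR adjusted p was 0.00031. The level of MMP2 in controls was lowest in samples 1 and 3, whose proliferation sums were low. In irradiated cells it was also lowest in samples 1 and 3. The proliferation sums of irradiated samples 1 and 3 were 110 and 121 CPM, and sample 2 had the lowest of the irradiated samples (72.5 CPM). A link between MMP2 and proliferation was not tested.

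MMP9, the other gelatinase, was close to absent from the counts. It lies on chromosome 20 from 46008908 to 46016561 (ENSG00000100985.7), and 18.4% of its exon length lies under SLC12A5-AS1 on the opposite strand. Controls 1 to 5 had 2, 1, 0, 1 and 3 counts, and irradiated samples 1 to 5 had 2, 2, 1, 3 and 0 counts. In the fit of all genes with at least 1 count, its log2 fold change was 0.44 with a standard error of 1.06 (edgeR, adjusted p = 0.838). A difference in MMP9 was not detectable at this depth, where 3 counts correspond to 0.0228 to 0.0453 CPM depending on the sample (counting error only).

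The membrane-type MMPs were both higher. MMP14 (MT1-MMP), a collagenase of the cell surface and the activator of pro-MMP2, lies on chromosome 14 from 22836560 to 22849041, plus strand (ENSG00000157227.14, 10 exons). Its level was 253, 268, 370, 246 and 253 CPM in controls 1 to 5, and 487, 485, 604, 540 and 512 CPM in irradiated samples 1 to 5. The irradiated samples all lay above the controls, and replicate 3 was the highest in both groups. The mean averaged 278 ± 51.9 CPM in control and 526 ± 49.2 CPM in irradiated samples (SD, n = 5 each) and rose with a log2 fold change of 0.93 (SE 0.07; edgeR, adjusted p = 5.27e-05). Without replicate 3 the log2 fold change was 0.99.

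MMP24 (MT5-MMP), best known for cutting N-cadherin, lies on chromosome 20 from 35226690 to 35276998, plus strand (ENSG00000125966.10, 9 exons). Its level was 37.6, 29.5, 36.6, 37.0 and 36.1 CPM in controls 1 to 5, and 57.8, 43.9, 60.0, 51.5 and 54.1 CPM in irradiated samples 1 to 5. Replicate 2 was the lowest in both groups, and the groups did not overlap. The log2 fold change was 0.59 (SE 0.05; edgeR, adjusted p = 6.93e-05). Of its exon length, 22.1% lies under opposite-strand genes, among them MMP24OS, and the levels can therefore be too low.

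Among the inhibitors, TIMP3 had the largest change. TIMP3 binds to the matrix through its heparin-binding surface and, unlike TIMP1 and TIMP2, also inhibits ADAM17 and aggrecanases. The gene lies on chromosome 22 from 32801705 to 32863041, plus strand (ENSG00000100234.12, 5 exons). Its level was 1.13, 0.737, 3.56, 1.47 and 0.823 CPM in controls 1 to 5, and 17.3, 5.33, 34.4, 15.7 and 9.001 CPM in irradiated samples 1 to 5. Every irradiated sample exceeded every control, although the irradiated levels themselves were spread over a wide range. Replicate 3 was the highest and replicate 2 the lowest in both groups. The log2 fold change was 3.39 (SE 0.15), a 10.5-fold rise, and the edgeR adjusted p was 1.08e-05. Within pairs the change ran from 2.86 (pair 2) to 3.95 (pair 1) on the log2 scale, and without replicate 3 the fitted value was 3.43.

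TIMP1, a secreted inhibitor of most soluble MMPs, lies on the X chromosome from 47582408 to 47586789, plus strand (ENSG00000102265.12, 6 exons). Its level was 104, 139, 145, 126 and 121 CPM in controls 1 to 5, and 160, 231, 215, 167 and 172 CPM in irradiated samples 1 to 5. The groups did not overlap, and the log2 fold change was 0.57 (SE 0.05; edgeR, adjusted p = 0.000159).

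TIMP2, the bridge between MMP14 and pro-MMP2, showed the least secure rise. It lies on chromosome 17 from 78852977 to 78925387, minus strand (ENSG00000035862.12, 5 exons). Its level was 144, 176, 255, 153 and 173 CPM in controls 1 to 5, and 207, 216, 236, 220 and 215 CPM in irradiated samples 1 to 5. Control 3 was the highest of all 10 samples, so the groups overlapped, and pair 3 was lower after irradiation (-0.11 on the log2 scale) while the other 4 pairs were higher. The log2 fold change was 0.31 (SE 0.09; edgeR, adjusted p = 0.0257). Without replicate 3 it was 0.42 (adjusted p = 0.00112). The call was lost without the replicate block (log2 fold change 0.28, adjusted p = 0.115), with library size as the only scaling (0.24, adjusted p = 0.059) and without replicate 1, 4 or 5 (adjusted p 0.0624 to 0.0923) in edgeR.

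**Figure D3:**
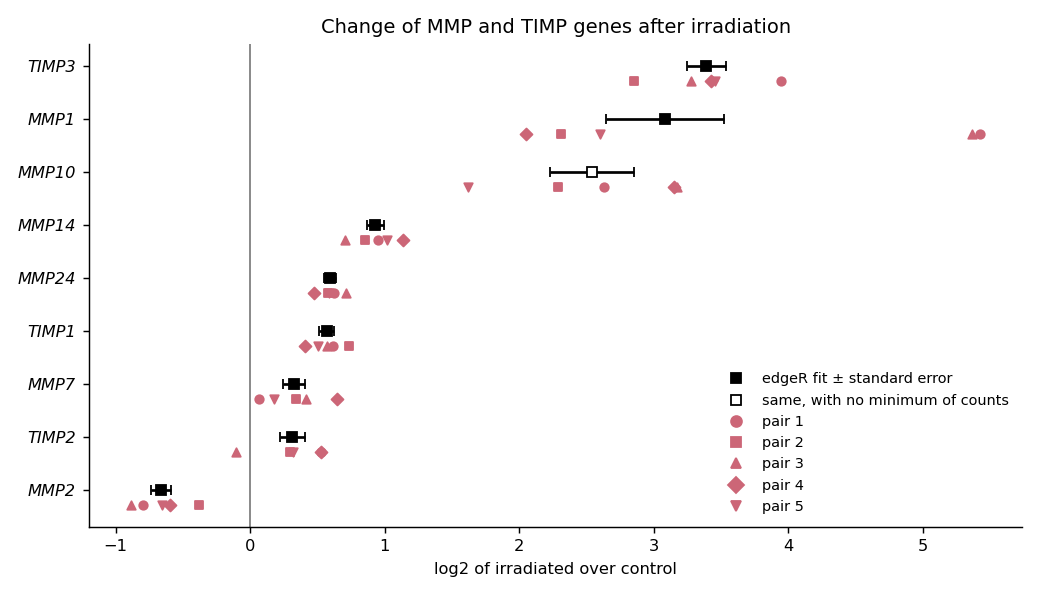
Log2 fold change of irradiated over control (horizontal axis) for 9 MMP and TIMP genes, with squares and bars for the edgeR fit ± standard error, an open square for MMP10 from the fit of all genes with at least 1 count, and red symbols for the 5 replicate pairs. The fits of TIMP3, MMP1 and MMP10 lie beyond 2-fold, the fit of MMP2 alone lies below 0, as does pair 3 of TIMP2, and the wide spread of MMP1 pairs includes pairs 1 and 3, whose controls had 1 and 2 counts.

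To set the genes beside each other, the CPM level was divided by the length of each gene's canonical transcript in kb. In control cells the mean level per kb fell from TIMP1 (165), MMP7 (157), MMP14 (75.1), TIMP2 (49.3) and MMP2 (39.1) to MMP24 (8.08), TIMP3 (0.336), MMP10 (0.0273), MMP1 (0.0264) and MMP9 (0.00566). Neighbours in this order whose samples overlapped were TIMP1 and MMP7, MMP14 and TIMP2, TIMP2 and MMP2, MMP10 and MMP1, and MMP1 and MMP9. In irradiated cells the mean level per kb was 246 for TIMP1, 196 for MMP7, 142 for MMP14, 60.0 for TIMP2, 25.1 for MMP2, 12.2 for MMP24, 3.56 for TIMP3, 0.247 for MMP1, 0.176 for MMP10 and 0.00801 for MMP9. Here TIMP1 overlapped MMP7, MMP7 overlapped MMP14, and MMP1 overlapped MMP10. TIMP3, for all its fold change, thus remained between MMP24 and the scarce MMP1 and MMP10, and below TIMP1 and TIMP2 in every irradiated sample. With the merged exons of all transcripts as the length, MMP14 passed MMP7 in irradiated cells (114 against 94.5 CPM per kb), and MMP2 passed TIMP2 in control cells (29.2 against 29.0 CPM per kb).

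**Figure D4:**
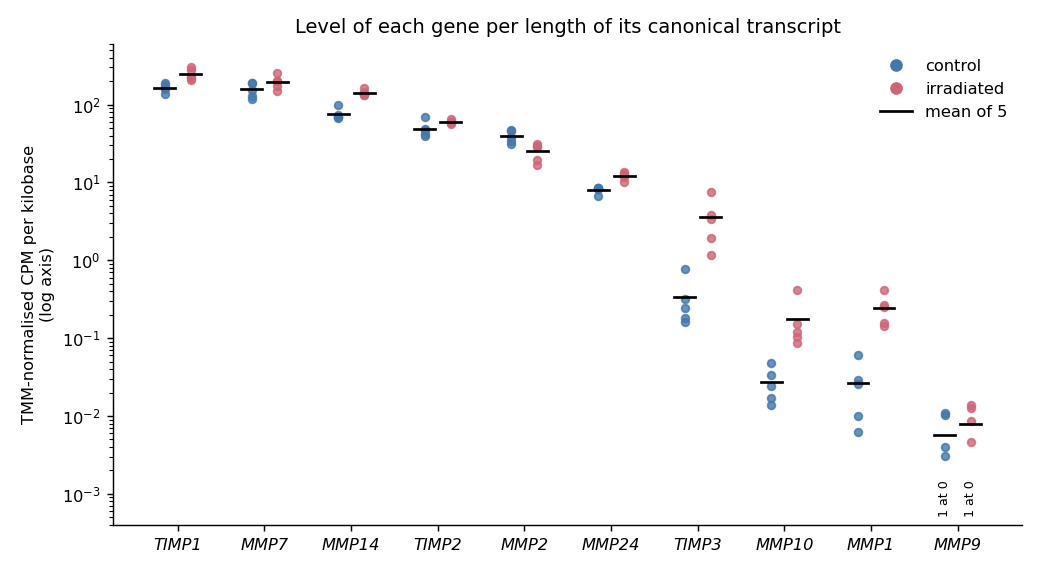
TMM-normalised CPM per kb of canonical transcript (vertical axis, logarithmic) of the 10 genes in control (blue) and irradiated (red) samples, ordered by the control mean, with black lines for the mean of 5 samples. The genes fall into a high set from TIMP1 to MMP24, at 8.08 or more in control, and a low set from TIMP3 to MMP9, at 0.336 or less, and MMP9 has 1 sample at 0 in each group.

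The balance among members was also compared per kb of canonical transcript, as a description. Shares and ratios depend on the length used, and were not computed with merged exons. The ratio of MMP14 to MMP2 was 2.02, 1.90, 3.24, 1.41 and 1.51 in controls 1 to 5, and 6.76, 4.46, 9.78, 4.67 and 4.78 in irradiated samples 1 to 5. These did not overlap, and MMP14 was the one that rose and MMP2 the one that fell. MMP14 made up 22.6% to 30.7% of the summed level of the 7 MMPs in control and 36.0% to 40.9% in irradiated samples, and MMP2 9.32% to 18.8% in control and 3.72% to 9.18% in irradiated samples. TIMP3 made up 0.0701% to 0.299% of the summed level of the 3 TIMPs in control and 0.322% to 2.13% in irradiated samples. The ratio of the summed TIMPs to the summed MMPs, by contrast, was 0.580 to 0.970 in control and 0.717 to 1.13 in irradiated samples, which overlapped. These are transcript levels, and activity of the enzymes was not measured.

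The wider pathway was described from 3 lists. The counts of each list are to be read beside all tested genes, of which 23.9% were higher and 22.7% lower. Of 17 other MMPs and TIMP4, 7 were tested, 5 were higher, none was lower and the median log2 fold change was 0.53. MMP28 (epilysin) averaged 0.0915 ± 0.035 CPM in control and 1.10 ± 0.602 CPM in irradiated samples (SD, n = 5 each). MMP28 rose with a log2 fold change of 3.46 (adjusted p = 6.57e-05). Like MMP1, it reached the limit on summed counts only through its irradiated samples (500 counts, against 51 counts in control). The size of its change is therefore less certain than its direction. MMP11 (stromelysin-3) and MMP19 had log2 fold changes of 1.02 (adjusted p = 0.000248) and 0.91 (adjusted p = 0.000114), and none of these 3 genes overlapped between groups. All irradiated samples lay above all controls for 14.6% of all tested genes, and these 3 were named for their large rises. MMP26 had 0 counts in all controls and 8, 0, 16, 1 and 0 counts in irradiated samples 1 to 5, and was under the limit. It was singled out after its values were seen.

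Of 28 ADAM and ADAMTS genes, relatives that shed surface proteins or cut proteoglycans and procollagen, 20 were tested, 10 were higher and 3 lower, with a median log2 fold change of 0.21. The shares over all tested genes were 23.9% higher and 22.7% lower. ADAMTS14, which trims procollagen, averaged 0.625 ± 0.409 CPM in control and 6.22 ± 2.88 CPM in irradiated samples (SD, n = 5 each) and rose with a log2 fold change of 3.38 (adjusted p = 1.56e-05). The aggrecanase ADAMTS5 averaged 33.4 ± 6.63 CPM in control and 114 ± 17.2 CPM in irradiated samples (SD, n = 5 each) and rose with a log2 fold change of 1.78 (adjusted p = 1.08e-05), and ADAMTS12 had a log2 fold change of 1.69 (adjusted p = 0.000384). The falls were ADAMTS16 (log2 fold change -2.29, adjusted p = 0.000996), ADAMTS8 (-0.92, adjusted p = 0.00348) and ADAM17 (-0.24, adjusted p = 0.034), the sheddase of tumour necrosis factor that TIMP3 inhibits. ADAM17 was 61.7 ± 8.06 CPM in control and 51.9 ± 3.55 CPM in irradiated samples (SD, n = 5 each), and the groups overlapped.

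All 15 genes of the list of activators, surface anchors and clearance of MMPs were tested, of which 7 were higher and 1 lower, with a median log2 fold change of 0.36. PLAU (urokinase, which makes plasmin) averaged 1013 ± 214 CPM in control and 2839 ± 548 CPM in irradiated samples (SD, n = 5 each) and rose with a log2 fold change of 1.49 (adjusted p = 2.06e-05). Of its exon length, 31% lies under C10orf55 on the opposite strand. The proprotein convertase PCSK5 rose (log2 fold change 0.92, adjusted p = 7.43e-05) and its relative PCSK6 fell (-1.37, adjusted p = 0.00053). TFPI2, an inhibitor of plasmin and other serine proteases, had a log2 fold change of 0.86 (adjusted p = 0.000432). The p-values of these 3 lists are edgeR's, adjusted over all 19006 genes.

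**Figure D5:**
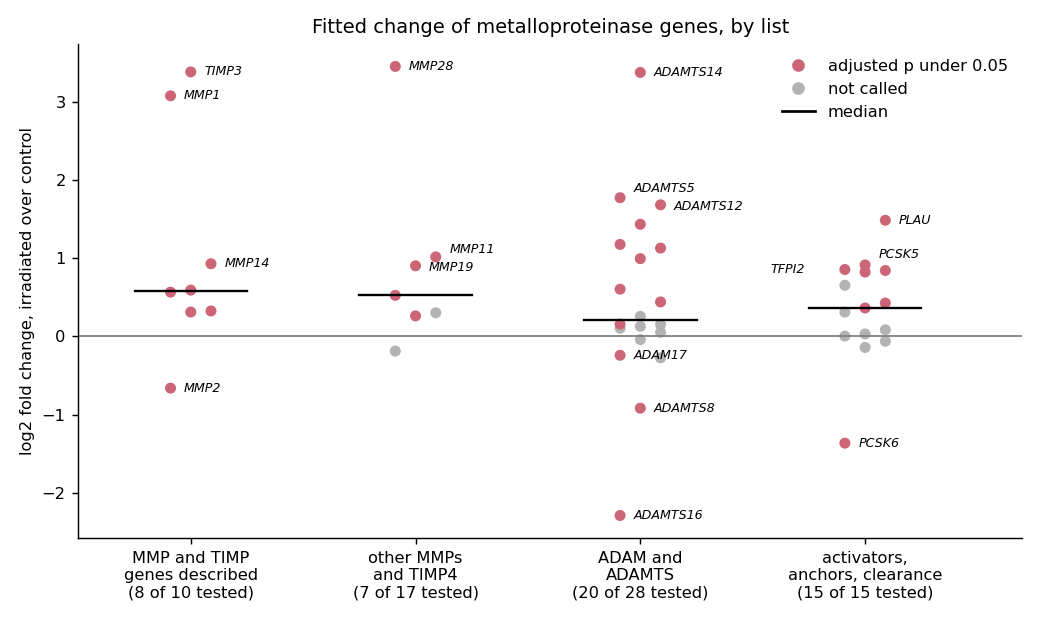
Fitted log2 fold change (vertical axis) of the tested genes in 4 lists, red where the adjusted p was under 0.05 and grey otherwise, with a line at the median of each list. MMP28 and ADAMTS14 lie near TIMP3 and MMP1 at the top, ADAMTS16 and PCSK6 are the lowest, and the medians run from 0.21 for the ADAM and ADAMTS genes to 0.58 for the MMP and TIMP genes described.

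The genes whose log2 CPM followed MMP1 and TIMP3, the MMP and the TIMP with the largest fitted change among the 8 tested of the 10 genes described, over the 10 samples were listed by Pearson's r, as a description of samples that share the same group difference and libraries. For MMP1 these were S100A16 (r = 0.990), SCEL (r = 0.986), ENSG00000276851 (r = 0.985), ENSG00000260877 (r = 0.985) and SLC26A2 (r = 0.984). S100A16 is a calcium-binding protein and SLC26A2 a sulfate transporter. For TIMP3 they were ANXA1 (r = 0.994), KLF6 (r = 0.993), UCA1 (r = 0.992), ABLIM3 (r = 0.991) and LDAF1 (r = 0.990). KLF6 is a zinc finger transcription factor and UCA1 a long non-coding RNA. Their log2 fold changes ran from 0.56 (ANXA1) to 2.84 (ENSG00000260877), all below those of MMP1 and TIMP3.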

How the data were processed

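After adapter trimming (Trim-Galore) and alignment to GRCh38 (hg38) with STAR, the authors deposited the raw counts that STAR made on genes. The annotation release is not given in the sources used here. The kit is TruSeq RNA v2 per the labels and another kit per the methods, and a test of genes under opposite-strand exons (17 of 17 protein-coding genes at 0, against 10.6% of 12742 without such overlap) led to their treatment as unstranded counts. Every sample column was used. Of 61587 identifiers, 61415 matched GENCODE v44, which gave symbols, lengths and coordinates.

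Differential expression was computed in edgeR 4.0.16 under R 4.3.3 (TMM normalisation, glmQLFit and glmQLFTest, a minimum of 200 summed counts per gene, replicate number as a block as in the study's model, Benjamini-Hochberg threshold 0.05). Standard errors are the absolute log2 fold change over the square root of the F statistic. Replicate numbers pair the samples, since deviations from group means correlated within each number (r = 0.217 to 0.508). Alternatives were DESeq2 1.42.0, limma-voom (limma 3.58.1), other scalings and filters, no replicate block and each replicate left out. Counts of replicates differed by more than sampling noise, but not equally. Between replicates 4 and 5 the chi-square per gene was 15.2 in control and 8.5 in irradiated samples. Between other replicates it was 57.2 to 214 in control and 40.5 to 88.6 in irradiated samples. Whether replicates 4 and 5 are less independent was not tested. Scripts were tested on simulated data. The genes and lists were chosen with earlier results of these data known. From each of the 3 wider lists, up to 3 of the largest rises and falls past the threshold are named. Figures were drawn with matplotlib 3.10.9.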

Additional observations from a re-analysis of the deposited data

Results flagged for a closer look

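A single sample stood far from the other 4 of its group (Dixon's test at the 95% level) in 10 of 42 sets of 5 values examined, where chance gives about 2.1. For 3 of the genes described it was control 3 that stood high: MMP14 at 369.7 CPM (other controls 246 to 268), TIMP2 at 254.7 CPM (others 144 to 176) and TIMP3 at 3.559 CPM (others 0.737 to 1.47). Among the activators, PLAU was also high in control 3, at 1391 CPM (others 876 to 963). MMP24 was low in control 2, at 29.5 CPM (others 36.1 to 37.6). In the ADAM and ADAMTS list, ADAMTS14 was at 11.2 CPM in irradiated sample 3 (others 4.03 to 6.05), ADAMTS16 at 0.9407 CPM in irradiated sample 2 (others 0.141 to 0.305), and ADAMTS8 at 0.5749 CPM in control 1 and 0.3431 CPM in irradiated sample 1 (others 0.279 to 0.361 and 0.130 to 0.179). PCSK6 was at 34.85 CPM in irradiated sample 2 (others 10.3 to 16.2).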

How the results depend on the processing

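Of 111 refits of single genes under the alternatives, 105 kept their direction and side of the threshold, 6 kept their direction but missed the threshold, and none reversed. The 6 were MMP7 without the replicate block and TIMP2 under 5 alternatives, all given above, and the cause was not tested. The block moved the count of changed genes from 7006 to 8857 and changed no other call among the 9 genes compared with and without it, MMP9 not being among them. Log2 fold changes ranged from 3.26 to 3.52 for TIMP3, 2.66 to 3.53 for MMP1, 2.27 to 2.804 for MMP10, 0.86 to 0.99 for MMP14 and -0.74 to -0.60 for MMP2. MMP1, MMP9 and MMP10 are limited by their counts. The alternatives for MMP10 and for gene length were chosen after seeing the data.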
